A study of Rattus norvegicus with 20 samples.

Results

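The genotype difference on a low-salt diet was measured in the RNA of dissected microvessels of rat kidney. It was taken as the 5 libraries of rats labelled SS Ccl2-/- and fed 0.3% NaCl against the 5 libraries of SS rats fed 0.3% NaCl, that is 10 of the 20 libraries of the series. Genes that reached 10 normalized counts in 5 or more of the 20 libraries were tested, 16153 of 16672. Both groups were male Dahl salt-sensitive (SS) rats, a strain that becomes hypertensive on a high-salt diet, kept on their diet for 2 weeks, and they differed by label only in Ccl2. The other 10 libraries came from rats of the same genotypes fed 4.0% NaCl, 5 of each. The age of the rats, the kind of null allele and whether each library pooled animals are not stated in the labels. Nothing beyond the rat number in the labels describes how the replicates were kept, so p-values measure only the spread between libraries, which may be technical.

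Ccl2 encodes the chemokine that draws monocytes out of the blood and into tissue through its receptor Ccr2, and endothelial, smooth muscle, mesangial and tubule cells of the kidney can make it. The small arteries of the kidney constrict when pressure rises, a response called myogenic tone, in which stretch-sensitive channels, calcium entry and the contractile proteins of smooth muscle take part. The title of the study names this response. Around these vessels lies an adventitia of fibroblasts that lay down fibrillar and beaded-filament collagens.

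Values below are normalized counts, rounded to 3 significant digits per rat, in rat order 1 to 5. A normalized count is the number of reads on a gene divided by a factor for the library, without division by gene length, so it compares a gene between rats and not 1 gene with another. Differences are null minus SS on the log2(normalized count + 1) scale with a standard error, and adjusted p-values are from limma with Benjamini-Hochberg adjustment over all tested genes. A gene is said to have risen or fallen where that adjusted p is under 0.05.

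Depth averaged 34.4 ± 8.02 M reads in rats labelled null and 32.6 ± 4.84 M in SS rats (SD, n = 5 each). The libraries contained vessel RNA and much tubule RNA. Smooth muscle, endothelial and pericyte markers were all measured, with Myh11, the smooth muscle myosin, at 10900 to 17700 in rats labelled null and 9120 to 14500 in SS rats. Slc34a1, the phosphate transporter of the proximal tubule, was at 69700 to 81300 in rats labelled null and 64900 to 91000 in SS rats. The 24 proximal tubule rows made up 2.11% to 2.69% of the signal outside mitochondrially encoded genes in rats labelled null and 2.40% to 3.00% in SS rats. The 13 mitochondrially encoded genes took 14.1% to 29.5% of all signal in rats labelled null and 22.6% to 42.5% in SS rats. Null rat 4 lay at one end of the first principal component of the 10 libraries and away from its group on the second, and SS rats 1 and 3 lay at opposite ends of the third. The rats labelled null had 10 to 38 genes of the deposited table at 0, against 71 to 117 in SS rats 1, 2 and 3 and 17 and 22 in SS rats 4 and 5.

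The level of Ccl2 did not separate the genotypes on low salt. Ccl2 was at 218, 161, 169, 124 and 194 in rats labelled null, against 199, 138, 190, 196 and 212 in SS rats. The groups overlapped over most of their range, and the rat with the highest count was one labelled null. The difference was -0.12, with p = 0.516 by an exact permutation test (two-sided) that takes in all 126 divisions of 10 rats, for which the smallest possible p is 0.00794. On high salt the same test gave -1.46 and that smallest p, 0.00794, so the labelled genotypes were separated by Ccl2 RNA on one diet only, and the difference between the diets was past the threshold (-1.34, adjusted p = 0.0237 by limma). The directions below are those of the labels.

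Ccr2, the receptor, had 142, 206, 146, 159 and 118 in rats labelled null, against 115, 133, 128, 188 and 170 in SS rats (0.07 ± 0.18, adjusted p = 0.867). The 2 groups overlapped here as well. Among the 6 tested genes of the Ccl2 list, Ackr2, a decoy receptor that takes up chemokines, came at 5.78, 7.47, 9.63, 6.35 and 5.63 in rats labelled null, against 1.21, 0, 0, 1.06 and 2.52 in SS rats. Those groups did not overlap, but the counts are few and the difference did not pass (adjusted p = 0.0886). None of the 30 tested genes that flank Ccl2, 15 on each side in the order of a RefSeq annotation, passed limma, and edgeR also called 0. Of these 30, 5 had an unadjusted p under 0.05, against 18% of all tested genes. DESeq2 called 2 of the 30, against 555 of all 16153, and the median difference of the 30 was -0.02.

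Across the transcriptome, 90 genes differed between rats labelled null and SS rats on low salt, which is 0.557% of those tested. The number was uneven in direction, with 73 genes higher (0.452%) and 17 lower (0.105%) in rats labelled null. The median size was 0.70 among the higher genes and -0.42 among the lower ones, 13 of the 90 changed at least 2-fold, and the median over all tested genes was close to 0. Scaling to the library total, which shifted that median by 0.27, called 4059 genes, 4053 of them higher, and scaling to a total that omits mitochondrially encoded genes called 368, 351 of them higher. At an unadjusted p under 0.05, 2905 genes differed, 1612 higher (9.98%) and 1293 lower (8%). Counts of list members given below, whether called or at that level, stand against the matching share of all tested genes. The 5 and 5 values did not overlap for 61 of the 73 higher genes, against 2.1% of all tested genes in that direction, and for 16 of the 17 lower ones, against 1.59%. Since the test reads the same values, this describes the called genes and adds no evidence.

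The number of genes that passed depended strongly on which rats were included. Without null rat 5 no gene passed limma (2191 had an unadjusted p under 0.05), and 1 passed without null rat 2, 5 without null rat 4 and 4 without SS rat 3. Without SS rat 1 there were 29, without SS rat 2 53, without null rat 3 161 and without SS rat 4 397. All 90 genes kept their sign in each of the 10 fits that left out 1 rat, but no gene passed in all 10. Numbl passed in the most, 9, and 29 of the 90 passed in at least 5. Fitted to the 10 low-salt libraries alone, limma called 28 genes, of which 19 were among the 90. With the mean level of the tubule markers as a covariate, 0 genes passed limma and 1628 had an unadjusted p under 0.05, while edgeR called 63 genes and DESeq2 555 on the full set. That tubule score was 12.50 to 12.96 in rats labelled null and 12.83 to 13.04 in SS rats on the log2 scale, and its part in the calls was not tested further.

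**Figure D1:**
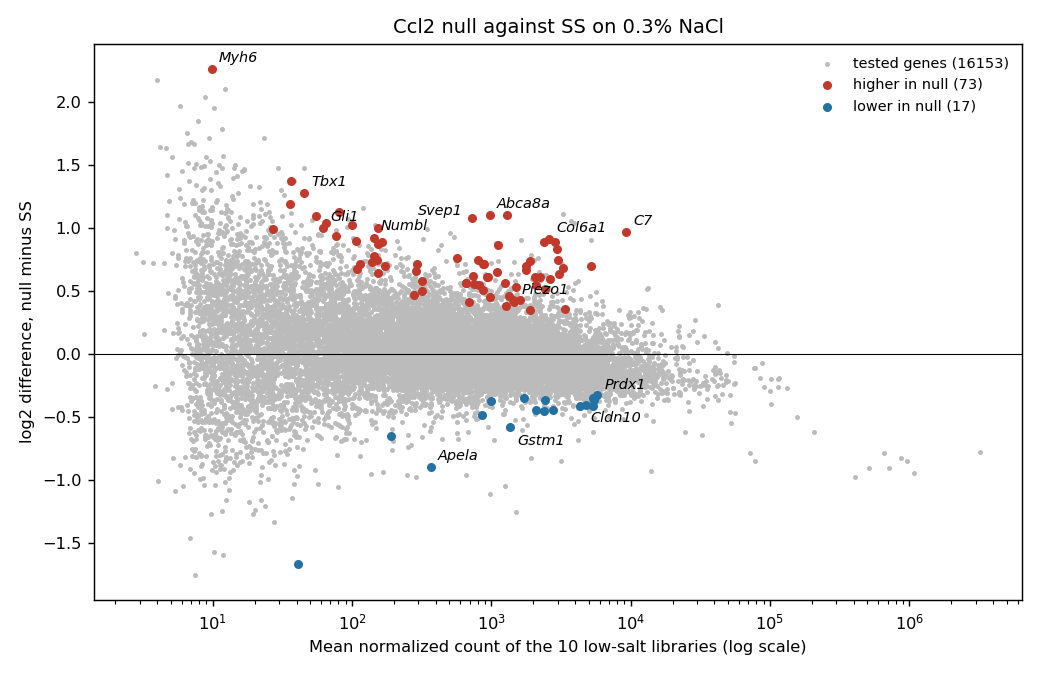
Mean normalized count of the 10 low-salt libraries (log scale) against the log2 difference of rats labelled null minus SS rats. Each grey point is 1 of 16153 tested genes, red points are the 73 higher genes and blue points the 17 lower ones; the mitochondrially encoded genes lie at the far right below 0 and did not pass.

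Collagens and a protein that cross-links the matrix stood among the genes that were higher in rats labelled null. Of 39 tested members of the collagen and matrix list, 9 rose and 0 fell, which is 23.1% against 0.557% of all tested genes, and the list's median difference was 0.32. At an unadjusted p under 0.05, 19 were higher and 0 lower. The 9 were the fibrillar collagens Col1a1, Col1a2, Col3a1, Col5a1 and Col5a2, the 3 chains of the collagen VI that forms beaded filaments around cells (Col6a1, Col6a2, Col6a3), and Loxl1, an enzyme that cross-links elastin. The count was 0 without any 1 of null rats 2, 4 and 5 and SS rat 3, 3 without null rat 1 or SS rat 2, 4 without SS rat 1, and reached 10 without SS rat 4 or SS rat 5.

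Promoter letters are shown for a collagen of each kind and for Apela, the named gene that fell by most. They come from RefSeq promoters on build GRCr8, as the 250 bases before the gene start, which RefSeq places at chr20:11905440-11905689 for Col6a1, chr4:33518307-33518556 for Col1a2 and chr16:29460605-29460854 for Apela, all on the plus strand. Capitals mark matches on either strand to the CCAAT box, the letters TATAAA or the letters GGGCGG, so that CCAAT also appears as ATTGG.
Col6a1: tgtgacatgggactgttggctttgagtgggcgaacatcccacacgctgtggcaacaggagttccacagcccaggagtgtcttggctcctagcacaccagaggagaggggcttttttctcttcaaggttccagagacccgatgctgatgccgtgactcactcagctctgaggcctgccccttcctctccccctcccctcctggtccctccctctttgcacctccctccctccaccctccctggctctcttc
Col1a2: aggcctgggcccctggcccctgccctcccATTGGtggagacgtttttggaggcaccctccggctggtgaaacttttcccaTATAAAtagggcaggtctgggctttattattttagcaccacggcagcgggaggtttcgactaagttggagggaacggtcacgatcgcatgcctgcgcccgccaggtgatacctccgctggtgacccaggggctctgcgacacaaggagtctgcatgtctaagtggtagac
Apela: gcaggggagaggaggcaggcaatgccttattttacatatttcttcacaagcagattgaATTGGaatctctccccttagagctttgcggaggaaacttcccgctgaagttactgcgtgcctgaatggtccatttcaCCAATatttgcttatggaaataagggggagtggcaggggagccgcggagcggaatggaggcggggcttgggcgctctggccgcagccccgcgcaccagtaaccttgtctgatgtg
The Col1a2 window held ATTGG at -221 and TATAAA at -170 from the start, the Apela window held ATTGG at -192 and CCAAT at -115, and the Col6a1 window held none of the 3 motifs. CCAAT or its reverse complement was present in 34.5% of the promoters of tested genes, TATAAA in 7.32% and GGGCGG in 53.2%. The 65 called genes with an entry had 69 promoters between them, some having more than 1. These shares were 21.4%, 5.36% and 53.6% of the 56 promoters of higher genes and 38.5%, 23.1% and 46.2% of the 13 promoters of lower genes.

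Col6a1 counts were 3470, 3750, 3280, 2930 and 3490 in rats labelled null, against 1640, 1430, 1410, 2210 and 2530 in SS rats. Every rat labelled null lay above every SS rat, and SS rats 4 and 5 were the highest of their group. Col6a1 rose by 0.91 ± 0.17 (adjusted p = 0.022, or 0.00802 to 0.0725 over the fits without 1 rat). Col1a2, a chain of type I collagen, had 4190, 4060, 3640, 3340 and 3490 in rats labelled null, against 2650, 1710, 1580, 2590 and 2950 in SS rats, and rose by 0.74 ± 0.15 (adjusted p = 0.029). Col3a1 averaged 6417 ± 649 in rats labelled null and 4045 ± 973 in SS rats (SD, n = 5 each) and rose by 0.70 ± 0.14 (adjusted p = 0.0318). Col6a2 and Col6a3 rose by 0.88 ± 0.19 each, with SS rats 1, 2 and 3 as the 3 lowest libraries for both. Col1a1 rose by 0.68 ± 0.14 (adjusted p = 0.0318), although its 2 groups overlapped. Loxl1 came at 2710, 2330, 2200, 1650 and 2070 in rats labelled null, against 1400, 1100, 1170, 1450 and 1650 in SS rats (0.69 ± 0.15, adjusted p = 0.0417). Its lowest null value, in rat 4, equals the highest SS value, in rat 5, at this rounding, and the unrounded groups did not overlap.

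Fibroblast markers were higher as a list. All 12 lay above 0 with a median of 0.49, and 4 of them rose (Col1a1, Col1a2, Clec3b and C7), which is 33.3% against 0.557% of all tested genes. That count was 2 with edgeR and without null rat 3, 1 without SS rat 1, and 0 without any 1 of null rats 1, 2, 4 and 5 and SS rats 2 and 3. Together the 12 made up 0.142% to 0.172% of the signal outside mitochondrially encoded genes in rats labelled null and 0.0796% to 0.113% in SS rats, with no overlap. This was not particular to fibroblast markers. Totals of the complement list, the NF-kB and cytokine list and the intercalated cell list did not overlap either. The total of the collagen and matrix list did overlap, at 0.604% to 0.716% in rats labelled null and 0.424% to 0.637% in SS rats. Of the 4 fibroblast markers that rose, Col1a1 and Col1a2 are also counted in the matrix list. In RNA of whole vessels, more cells of a type and more RNA per cell cannot be told apart. C7, a terminal complement component made by fibroblasts, had 13900, 13300, 12000, 10200 and 11600 in rats labelled null, against 6580, 4640, 5640, 6510 and 8270 in SS rats. Every rat labelled null was above every SS rat, and C7 rose by 0.96 ± 0.22 (adjusted p = 0.0454). Clec3b, which encodes the plasminogen-binding protein tetranectin, rose by 1.00 ± 0.22 (adjusted p = 0.0417), with 163 to 247 in rats labelled null and 63.5 to 159 in SS rats.

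**Figure D2:**
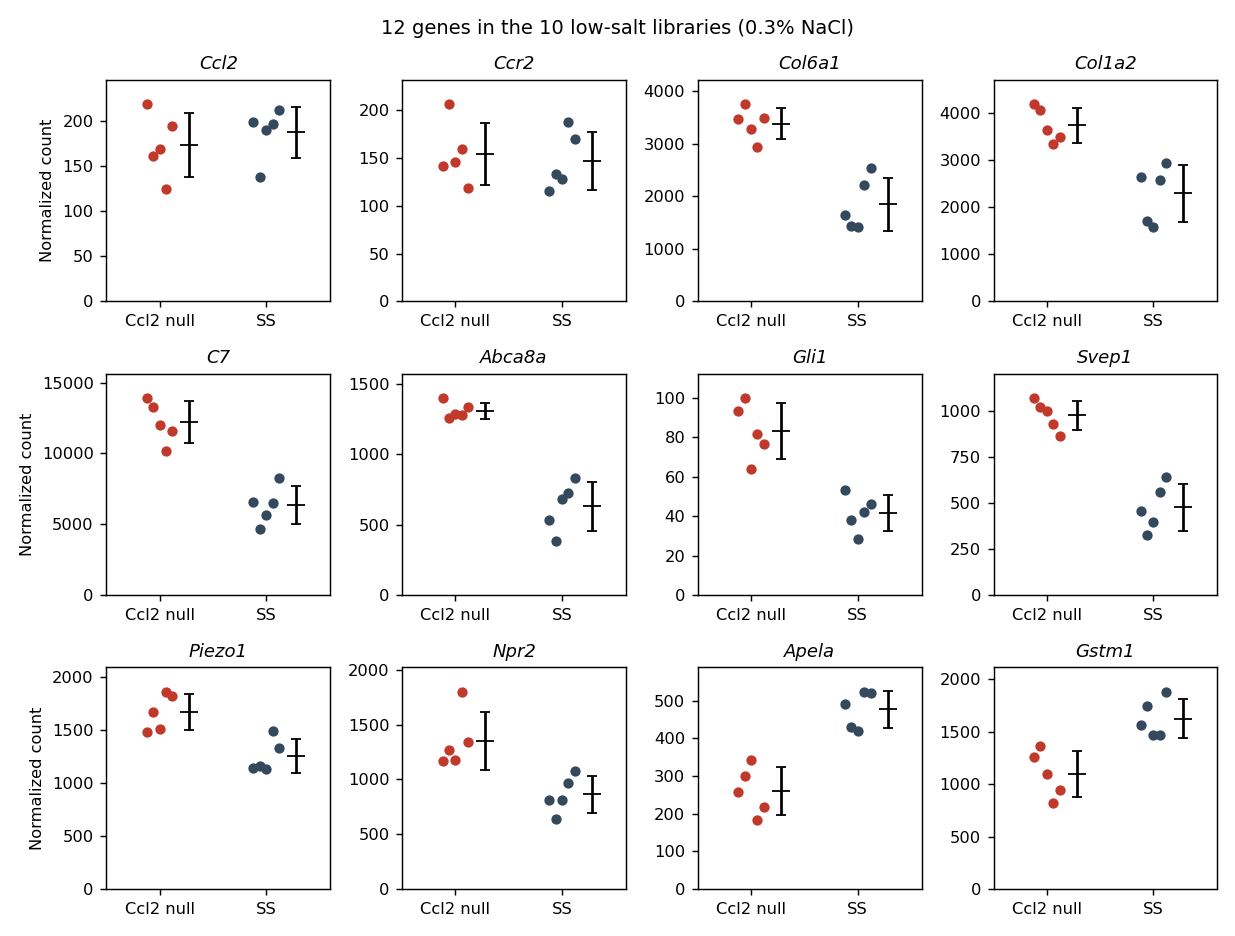
Normalized counts of 12 genes in each low-salt rat, Ccl2 null left of SS (n = 5 each), with the mean and SD beside the points and axes that start at 0. Ccl2 and Ccr2 overlap between the groups, whereas the collagens shown, C7, Abca8a, Gli1, Svep1, Npr2, Apela and Gstm1 separate all 5 rats of each group and Piezo1 overlaps in a single pair.

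Among the 12 largest increases of named genes with a mean of at least 50 were those of Aox1, Abca8a, Cyp4f37, Svep1, Gal3st4, Abca8, Clec3b, Gli1, C7, Aatk and Numbl. Abca8a, a lipid transporter of the ABC family, had 1400, 1260, 1290, 1280 and 1340 in rats labelled null, against 533, 387, 683, 723 and 829 in SS rats. The 5 rats labelled null were within a narrow range well above all SS rats, and Abca8a rose by 1.10 ± 0.17 (adjusted p = 0.00992). Abca8, a related transporter that shares sequence with it, rose by 1.03 ± 0.20 (adjusted p = 0.0271), and reads of the 2 may be divided uncertainly. Aox1, an aldehyde oxidase, had 1490 to 2120 in rats labelled null and 471 to 1180 in SS rats and rose by 1.10 ± 0.20 (adjusted p = 0.021). Svep1, a large adhesion protein of the vessel wall matrix, had 866 to 1070 in rats labelled null and 324 to 644 in SS rats and rose by 1.07 ± 0.21 (adjusted p = 0.0279). Numbl, an adaptor that restrains Notch signalling in development, had the lowest adjusted p of all genes, 0.00942, at 163 to 216 in rats labelled null and 84.1 to 124 in SS rats (0.92 ± 0.13).

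Hedgehog signalling runs from a secreted ligand, through the receptor Ptch1, to the Gli transcription factors, and Gli1 and Ptch1 are themselves induced by it. In the Hedgehog list, put together after these values were seen, 2 of 13 tested members rose and 0 fell. Gli1 had 93.5, 99.9, 63.9, 81.5 and 76.8 in rats labelled null, against 53.3, 38.1, 28.3, 42.2 and 46.2 in SS rats. It rose by 0.99 ± 0.20 (adjusted p = 0.0279), and all rats labelled null were above all SS rats. Kif7, a kinesin that regulates the Gli proteins, rose by 0.71 ± 0.15 (adjusted p = 0.0355). Ptch1 did not pass (-0.03 ± 0.08, adjusted p = 0.872), and the ligand Shh had 4.38 to 25.4 in rats labelled null and 22.7 to 37.0 in SS rats (adjusted p = 0.21).

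Among the lower genes with a name the largest decrease was that of Apela, which encodes a peptide ligand of the apelin receptor on endothelium. Apela had 258, 301, 341, 182 and 218 in rats labelled null, against 492, 430, 418, 523 and 520 in SS rats, so every rat labelled null was below every SS rat, and it fell by 0.90 on the log2 scale (standard error 0.19, adjusted p = 0.0321). Gstm1, a glutathione transferase, had 1260, 1360, 1100, 820 and 940 in rats labelled null, against 1560, 1750, 1470, 1470 and 1880 in SS rats (-0.58 ± 0.13, adjusted p = 0.0466), and the groups did not overlap. Reads of its family may be divided uncertainly between near-identical copies, as may those of RT1-Hb-ps1, a pseudogene of the major histocompatibility region that fell by 0.65 (adjusted p = 0.0388). The other genes among the 12 largest named decreases with a mean of at least 50 were Nop10, Ndufs6l1, Cystm1, Gpc3, Cldn10, Cox5a, Rpl27, Mrps11 and Tbca. Gpc3, a heparan sulfate proteoglycan of the cell surface, had 2110 to 2480 in rats labelled null and 2670 to 3760 in SS rats (-0.45 ± 0.10, adjusted p = 0.0384).

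Genes of the mitochondrion and of protein synthesis were lower in most members, though few passed, and some group medians turned above 0 under scaling to the library total. Of the 30 rows of the nuclear respiratory chain list, 28 lay below 0 with a median of -0.24, 17 were lower at an unadjusted p under 0.05, and only Cox5a, a subunit of cytochrome c oxidase, fell (3.33%, against 0.557% of all tested genes), while edgeR called 0 lower and DESeq2 6. Cox5a had 5090, 5010, 5190, 4150 and 3810 in rats labelled null, against 6350, 5730, 6910, 5210 and 6670 in SS rats, and the groups did not overlap, with null rats 1, 2 and 3 close below SS rat 4 (-0.41 ± 0.09, adjusted p = 0.0417). Counted by symbol, a grouping chosen after the values were seen, 3 of 81 Nduf, Cox and Atp5 rows fell (Cox5a, Ndufv2 and Ndufs6l1). So did 1 of 73 mitochondrial ribosomal protein genes (Mrps11) and 1 of 78 cytosolic ribosomal protein rows, pseudogenes left out (Rpl27). Of all tested genes 0.105% fell, and a single call says little about a family. The medians of these symbol groups were -0.30, -0.22 and -0.18. With scaling to the library total the medians of the respiratory list, the mitochondrial ribosomal genes and the cytosolic ribosomal genes turned to 0.03, 0.05 and 0.09. That scaling moved the median over all tested genes by 0.27, against the -0.30 of the Nduf, Cox and Atp5 rows. Prdx1, a peroxiredoxin that removes peroxide, fell by 0.35 (standard error 0.07, adjusted p = 0.0279), with 4400 to 5240 in rats labelled null and 5390 to 6500 in SS rats.

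The 13 mitochondrially encoded genes all lay below 0, with a median of -0.85, and none passed limma or edgeR, while DESeq2 called 1 lower. At an unadjusted p under 0.05, 5 of the 13 were lower. Mt-nd3, a subunit of complex I, averaged 55277 ± 12118 in rats labelled null and 100900 ± 27579 in SS rats (SD, n = 5 each, adjusted p = 0.0944). Null rat 5, with 29.5% of all signal on these genes, lay above SS rats 3, 4 and 5, and SS rats 1 and 2 held the highest shares, 33.8% and 42.5%. With that share as a covariate 404 genes passed limma, 173 higher and 231 lower, so the split of the calls moved with it.

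**Figure D3:**
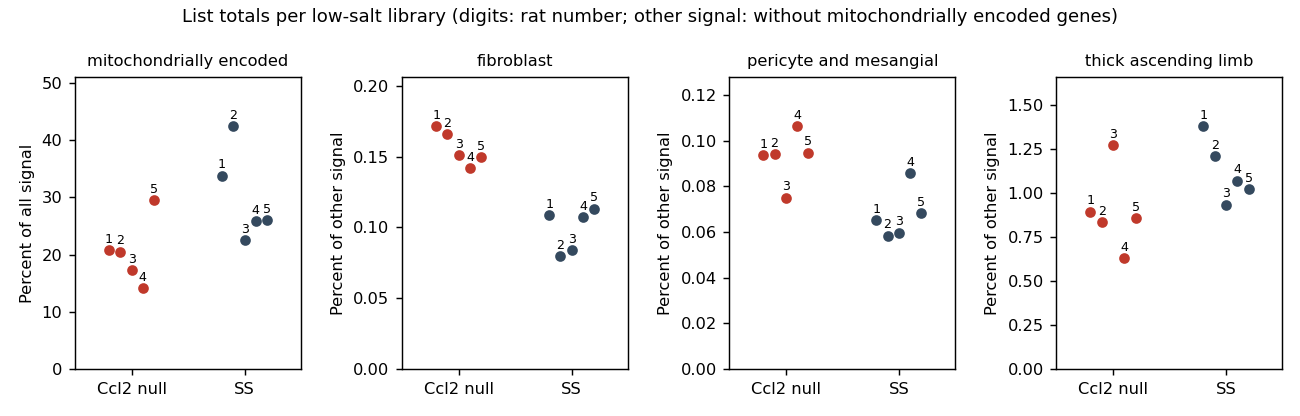
Share of signal taken by 4 gene lists in each low-salt library, Ccl2 null left of SS, with the rat number at each point. Mitochondrially encoded genes are a percent of all signal and the other lists a percent of the signal outside them; the fibroblast totals of the 2 groups do not overlap, and the other 3 do.

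Cells of the vessel wall gave small differences of which few passed. None of the 17 smooth muscle contractile genes passed limma, edgeR or DESeq2, 4 were higher at an unadjusted p under 0.05, and the median was 0.23. Myh11 had 16700, 14900, 10900, 16800 and 17700 in rats labelled null, against 9480, 11500, 9600, 14500 and 9120 in SS rats (0.51 ± 0.18, adjusted p = 0.148), so null rat 3 lay within the SS range. Acta2, smooth muscle actin, had 8150 to 15000 in rats labelled null and 8850 to 12100 in SS rats (adjusted p = 0.214). Pericyte and mesangial markers had a median of 0.41 with all 11 above 0 and 8 higher at an unadjusted p under 0.05; limma and edgeR called 0 and DESeq2 1. Pdgfrb, the platelet-derived growth factor receptor of these cells, had 3800, 3970, 3580, 4420 and 3720 in rats labelled null, against 2360, 1470, 1970, 3520 and 3150 in SS rats (0.71 ± 0.19, adjusted p = 0.0699). Those groups did not overlap, although SS rat 4 came within reach of null rat 3. Among 19 blood endothelial markers, limma and edgeR called 0 and DESeq2 1, 6 were higher and 1 lower at an unadjusted p under 0.05, and the median was 0.17. Of 7 lymphatic endothelial markers, Ccl21 alone passed limma, against 0.557% of all tested genes. Ccl21, the chemokine that guides cells into lymphatics, rose by 0.71 ± 0.15 (adjusted p = 0.0355), with 871 to 1400 in rats labelled null and 475 to 830 in SS rats. Mmrn1 and Flt4 were also higher at an unadjusted p under 0.05, and Pdpn was lower (-0.28 ± 0.11). Prox1, Reln and Lyve1 did not reach that level, so the list as a whole did not rise.

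Of 43 genes of the myogenic channel and effector list, Piezo1 alone passed limma, edgeR called 1 higher and DESeq2 4, 13 were higher at an unadjusted p under 0.05 and 0 lower, and the median was 0.26. Piezo1, a channel opened by stretch of the membrane, had 1480, 1670, 1510, 1860 and 1820 in rats labelled null, against 1140, 1160, 1130, 1490 and 1330 in SS rats. It rose by 0.41 ± 0.09 (adjusted p = 0.0381, or 0.0112 to 0.112 over the fits without 1 rat), and null rat 1 lay just below SS rat 4. Trpm4, a cation channel that depolarizes smooth muscle, had 508, 548, 528, 558 and 548 in rats labelled null, against 450, 419, 424, 449 and 418 in SS rats. The groups did not overlap, yet the difference of 0.32 ± 0.08 did not pass (adjusted p = 0.0682). Trpc6, another channel of the myogenic response, had 46.6 to 77.5 in rats labelled null and 32.6 to 78.1 in SS rats (adjusted p = 0.283), and Cacna1c, the pore of the L-type calcium channel, had 150 to 257 in rats labelled null and 121 to 191 in SS rats (adjusted p = 0.211). Kcnma1, a calcium-activated potassium channel, differed by 0.12 ± 0.20 (adjusted p = 0.784).

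Among 32 vasoactive receptors, Npr2 alone passed limma, edgeR called 1 higher and DESeq2 2, 10 were higher and 1 lower at an unadjusted p under 0.05, and the median was 0.22. Npr2, the receptor of C-type natriuretic peptide, had 1170, 1270, 1180, 1800 and 1340 in rats labelled null, against 815, 640, 808, 970 and 1080 in SS rats. Every rat labelled null was above every SS rat, with null rat 4 far above the rest (0.65 ± 0.13, adjusted p = 0.0279). Npr1, the receptor of atrial natriuretic peptide, differed by 0.58 ± 0.14 (adjusted p = 0.0529), and Ednra, an endothelin receptor, by 0.44 ± 0.16 (adjusted p = 0.156). Notch4, an endothelial Notch receptor, rose by 0.59 ± 0.14 (adjusted p = 0.0454), with 2450 to 4920 in rats labelled null and 1640 to 2370 in SS rats, and F8, clotting factor VIII, by 0.55 ± 0.10 (adjusted p = 0.021). Nos3, endothelial nitric oxide synthase, had 1580 to 3040 in rats labelled null and 1470 to 2240 in SS rats (adjusted p = 0.266).

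**Figure D4:**
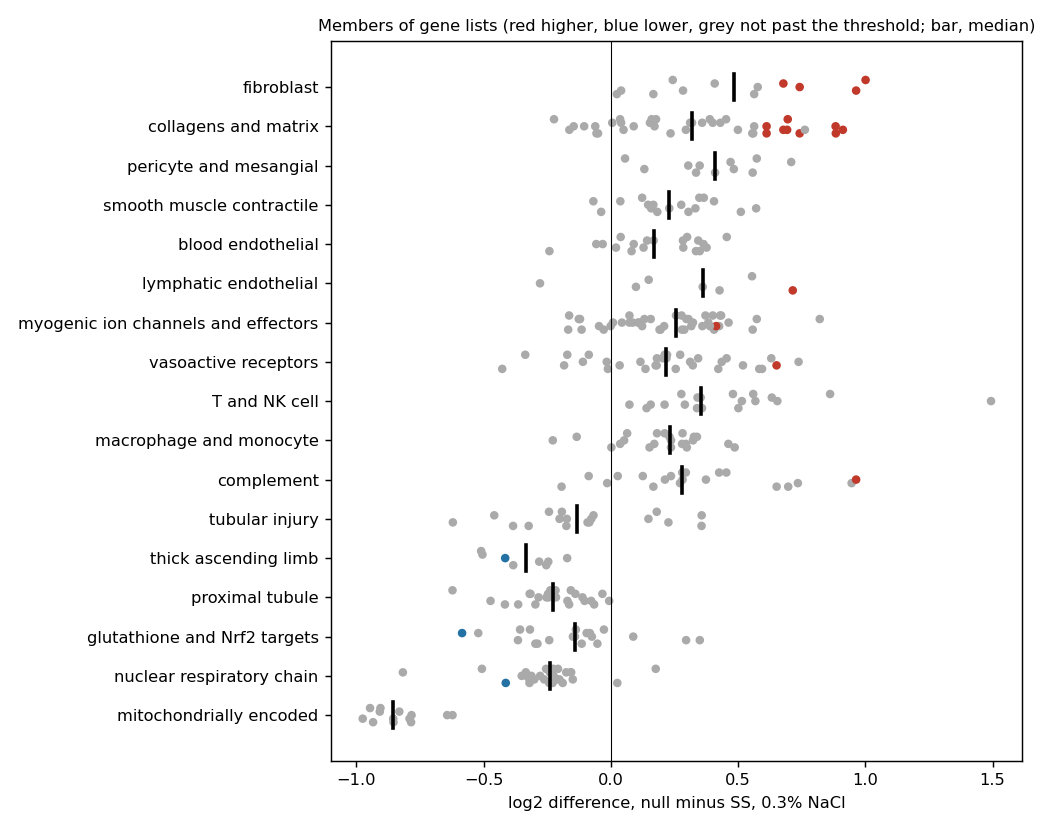
Log2 difference of rats labelled null minus SS rats on 0.3% NaCl for each tested member of 17 lists, with a bar at the list's median. Red members rose, blue members fell and grey ones did not pass limma; medians run from -0.85 for mitochondrially encoded genes to 0.49 for fibroblast markers, and with scaling to the library total those of the proximal tubule, injury, glutathione and respiratory lists turned above 0.

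Lists of T and NK cell, macrophage and complement genes lay above 0 in most members, lists of B cell and MHC class II genes did not, and few of their genes passed. All 20 T and NK cell genes were above 0 with a median of 0.36; limma, edgeR and DESeq2 called 0 and 8 were higher at an unadjusted p under 0.05. Cd3e, a chain of the T cell receptor complex, had 118 to 180 in rats labelled null and 87.3 to 179 in SS rats (0.16 ± 0.22, adjusted p = 0.741). For the 22 macrophage and monocyte genes the 3 tools called 0, 4 were higher at an unadjusted p under 0.05, and the median was 0.23. Their summed share overlapped almost wholly, at 0.298% to 0.353% of the signal outside mitochondrially encoded genes in rats labelled null and 0.299% to 0.366% in SS rats. Cd68, a macrophage marker, had 202 to 697 in rats labelled null and 258 to 675 in SS rats (adjusted p = 0.792). Of 6 B and plasma cell genes 4 lay below 0, with a median of -0.28, and of 11 genes of MHC class II and its regulator 7 did, with a median of -0.04 that turned to 0.23 with scaling to the library total; the 3 tools called 0 in both lists, and at an unadjusted p under 0.05 there were 0 in the B cell list and 1 higher gene in the class II list. Of 20 complement genes, C7 alone rose, while edgeR called 0 and DESeq2 4 higher, 8 were higher at an unadjusted p under 0.05, and the median was 0.28, with C1s, a protease of the first complement component, at 1210 to 1690 in rats labelled null and 625 to 1050 in SS rats (adjusted p = 0.0534). Vcam1 (adjusted p = 0.143) and Icam1 (adjusted p = 0.413), adhesion molecules for leukocytes, did not pass.

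Among markers of the loop of Henle, 1 passed. All 8 markers of the thick ascending limb lay below 0 with a median of -0.33. Cldn10, a claudin of its tight junctions, alone fell, against 0.557% of all tested genes called. Cldn10, Ppp1r1a, Slc12a1 and Umod were lower at an unadjusted p under 0.05. Counts per gene do not tell in which cells Cldn10 fell. Cldn10 had 4000, 3810, 4100, 2980 and 3640 in rats labelled null, against 5260, 4640, 5030, 4530 and 5130 in SS rats, with no overlap and null rat 4 the lowest (-0.42 ± 0.08, adjusted p = 0.022). Slc12a1, the sodium-potassium-chloride cotransporter of this segment, had 15500 to 31000 in rats labelled null and 23200 to 34200 in SS rats (adjusted p = 0.186). The 24 proximal tubule rows all lay below 0 with a median of -0.23, which turned to 0.04 with scaling to the library total; the 3 tools called 0 and 9 were lower at an unadjusted p under 0.05. Of 18 genes of the tubular injury list the 3 tools called 0, 2 were higher and 1 lower at an unadjusted p under 0.05, and the median was -0.13, or 0.14 with scaling to the library total. Havcr1, the injury marker KIM-1, had 294 to 1010 in rats labelled null and 490 to 964 in SS rats (-0.19 ± 0.30, adjusted p = 0.776), Lcn2, a secreted injury protein, differed by -0.24 ± 0.23 (adjusted p = 0.605), and Timp1, a protease inhibitor of the matrix, by 0.23 ± 0.15 (adjusted p = 0.442).

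Clock genes spread widely within each group. Of 18, limma and edgeR called 0 and DESeq2 1, and 8 were higher and 3 lower at an unadjusted p under 0.05. Per2, a repressor of the clock, had 694, 851, 1310, 1200 and 1450 in rats labelled null, against 407, 651, 709, 701 and 829 in SS rats (0.72 ± 0.21, adjusted p = 0.0812), and Bmal1, its activator, had 1070, 761, 313, 196 and 218 in rats labelled null, against 1050, 818, 714, 830 and 605 in SS rats (-0.96 ± 0.35, adjusted p = 0.151). Null rats 1 and 2 lay nearer to the SS rats in both genes than null rats 3, 4 and 5 did. The time of day at which kidneys were taken is not stated in the labels.

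Most of the genes called on low salt did not pass between the other rats of the same labelled genotypes, on high salt. Of the 90 genes, 7 changed in the same direction on 4.0% NaCl, 2 changed in the opposite direction and the rest did not pass there, so that 10% passed on high salt, against 8.52% of all tested genes (3.7% higher and 4.82% lower). The 7 were Myh6, Gal3st4, Kif26a and Mtss2, which rose on both diets, and Taldo1, Gpc3 and Gstm1, which fell on both. The count of 7 was 0 without any 1 of null rats 2, 4 and 5 and SS rat 3, 3 without SS rat 1 or SS rat 5, 14 without null rat 3 and 38 without SS rat 4. Kif26a, a kinesin, rose by 0.46 ± 0.10 on low salt and 0.48 ± 0.10 on high salt (adjusted p = 0.0355 and 0.00606). Gpc3 fell by 0.45 and by 0.55 (adjusted p = 0.0384 and 0.0018). Of the 73 genes higher on low salt, 40 were above 0 on high salt with a median of 0.05, and of the 17 lower genes 15 were below 0 with a median of -0.16. Among all tested genes, 50.2% were above 0 on high salt, with a median of 0.00087. The 9 matrix genes that rose on low salt did not pass on high salt, where Col6a1 differed by 0.05 ± 0.17. The difference between the diets passed for 25 of the 73 and 2 of the 17, against 2.53% of all tested genes, but it uses the same low-salt libraries that chose the genes, so this gives no independent support.

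The 2 opposite genes were Tbx1, a T-box transcription factor, and Sptbn4, a spectrin. Tbx1 had 68.4, 72.9, 57.8, 50.8 and 72.5 in rats labelled null, against 23.0, 25.4, 32.6, 17.9 and 33.6 in SS rats on low salt, with no overlap and a difference of 1.27 ± 0.20 (adjusted p = 0.00992); on high salt it differed by -0.72 ± 0.20 (adjusted p = 0.0312). Sptbn4 differed by 0.89 ± 0.18 on low salt and by -1.03 ± 0.18 on high salt (adjusted p = 0.0279 and 0.00163). Myh6, a cardiac myosin heavy chain, was low throughout, at 16.4, 9.34, 8.75, 40.2 and 11.3 in rats labelled null, against 1.21, 3.17, 1.09, 4.22 and 2.52 in SS rats on low salt (adjusted p = 0.024).

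**Figure D5:**
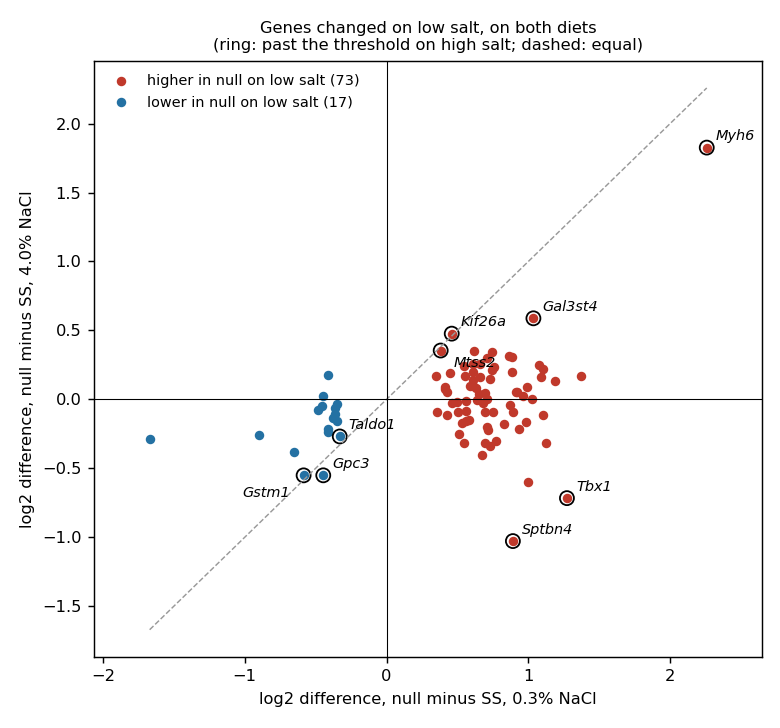
Log2 difference of rats labelled null minus SS rats on 0.3% NaCl (horizontal) and on 4.0% NaCl (vertical) for the 90 genes that changed on low salt. Rings mark the 9 genes that also passed on high salt, 7 in the same direction and 2 in the opposite one, and the dashed line marks equal differences.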

How the data were processed

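RNA-seq of microvessels dissected from rat kidney was analysed from 20 libraries in 4 groups of 5 rats. Per the labels' protocols, TRIzol was used for extraction, DNase against genomic DNA and poly A selection for the libraries. STAR 2.7.11b and featureCounts 2.0.6 (Subread) are named on build mRatBN7.2, with DESeq2 1.44, Trim Galore and MultiQC, per the submitters' processing notes. Settings and strand of counting are not stated there. The deposited signal is the authors' normalized count per gene, and whole reads were recovered for 100% of values within 1e-06. No row had under 100 recovered reads in total.

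Genes reaching 10 normalized counts in 5 or more libraries entered limma 3.58.1 in R 4.3.3 (mean trend) on log2(value + 1), all 4 groups in 1 fit, two-sided, with Benjamini-Hochberg adjustment and a threshold of 0.05. The pseudocount of 1 understates changes of rare transcripts. Alternatives were pseudocounts of 0.5 and 8, filters, scalings, a block for the rat number, library weights, covariates, leaving out each rat, and edgeR 4.0.16 and DESeq2 1.42.0 on recovered reads. On simulated data for this comparison (16153 genes, 200 changed), 98.5% of 4-fold changes were recovered and 6.98% of calls were unchanged genes. Each gene was drawn on its own there, with no shift shared by the genes of a library such as that of the mitochondrial share. These percentages therefore need not hold for the real libraries.

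The members, lists and rules were chosen with earlier results of these data known. Named were Ccl2 and Ccr2, the 12 largest called changes each way with a mean of at least 50, up to 6 each way called on both diets, up to 4 members of smallest p per list described, and 20 genes by name; some genes this rule names are not reported here. Named after their values were seen were the other collagens, Loxl1, Npr2, Piezo1, the Hedgehog genes, Prdx1, Ndufv2, Ndufs6l1, Myh6, Notch4, F8, Tbx1 and Sptbn4. RefSeq names and gene order came from build GRCr8 (14779 of 15485 gene names in the deposited table matched), and no coordinates of counted genes were taken from it.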

Additional observations from a re-analysis of the deposited data

Results flagged for a closer look

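Single rats stood far from the other 4 of their group, by Dixon's criterion (a gap to the nearest rat that is large for the group's range), for 9 of 296 named gene and group pairs, where chance flags about 1 in 20. They were Egfl7 in null rat 4 (8840), Gsta3 in null rat 3 (953), Itgal in null rat 3 (767), Myh6 in null rat 4 (40.2), Npr1 in null rat 4 (3860), Npr2 in null rat 4 (1800), Timp1 in null rat 1 (810), Trpc6 in SS rat 4 (78.1), Trpm2 in null rat 4 (1290), in normalized counts, and 5 of the 9 are null rat 4.

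For 28 of 148 named gene entries the difference of null minus SS was not the same on the 2 diets, by limma's interaction of diet and labelled genotype. In log2 units of the high-salt difference minus the low-salt one, it was more negative on high salt for Aatk -1.15, Abca8a -1.22, Axl -0.76, Ccl2 -1.34, Ccl21 -0.94, Ccr2 -1.06, Clec3b -1.60, Col3a1 -0.79, Cp -0.86, Havcr1 -3.24, Ikbke -0.84, Lcn2 -1.57, Loxl1 -1.01, Nfkbiz -1.13, Numbl -0.87, Sptbn4 -1.92, Stab1 -0.84, Tbx1 -1.99, Timp1 -1.46, Trpm4 -0.44, Zap70 -1.51. It was more positive on high salt for Adra2b 0.59, Anpep 0.78, Cldn10 0.59, Cyp4a8 1.07, Cystm1 0.47, Ppp1r1a 0.94, Slc12a1 0.93. Most of these genes were named for their low-salt values, which enter the interaction too.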

How the results depend on the processing

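Gene counts depended strongly on the setting. Against 90, limma called 87 with no filter, 116 with a filter of 100, 57 after quantile normalization, 28 from the 10 low-salt libraries alone, 368 with scaling to a total that omits mitochondrially encoded genes, 4059 (4053 higher) with scaling to the library total, 487 with library weights, 404 with the mitochondrial share in the model and 0 with the tubule score; edgeR called 63 and DESeq2 555. Leaving out 1 rat gave 0 to 397, and leaving out null rat 4 and SS rat 3, chosen after seeing the data, gave 2. Of genes changed in the same direction on both diets (7), scaling to the library total gave 120, scaling without mitochondrially encoded genes 18, quantile normalization 4, library weights 52, the mitochondrial share 60, the tubule score 0, DESeq2 57, leaving out 1 rat 0 to 38 and leaving out both rats 0. With the rat number as a replicate block, 132 genes were called on low salt and 17 on both diets. Same-numbered rats of the 2 low-salt groups correlated between -0.12 and 0.06 in their deviations, and none matched its own number best. Whether same-numbered rats were handled together was not tested by this, and the labels do not state it. The Ccl2 difference was -0.12 with the block, 0.14 with scaling to the library total and -0.23 to -0.0086 without 1 rat. None of the called genes that are named changed sign. Uncalled genes did: under scaling to the library total Acsm2 (1 of its 2 entries) 0.031, Acsm2 (its other entry) 0.022, Agtr1a 0.26, Atp6ap2 0.070, Ccl2 0.14, Havcr1 0.076, Lcn2 0.025, Nfkbib 0.026, Ptch1 0.24, Slc34a1 0.16; under scaling without mitochondrially encoded genes Agtr1a 0.064, Ptch1 0.047; under library weights Agtr1a 0.0040, Havcr1 0.030; under mitochondrial share as covariate Agtr1a 0.013, Ccl2 0.098; under tubule score as covariate Agtr1a 0.19, Ccl2 0.025, Kcnma1 -0.019, Nos3 -0.027, Ptch1 0.0070, Slc34a1 0.017; under edgeR Agtr1a 0.0072; under DESeq2 Agtr1a 0.0030; under leaving out null rat 4 and SS rat 3 Agtr1a 0.10, Ccl2 0.0012, Kcnma1 -0.024; under quantile normalization Ccr2 -0.017, Slc34a1 0.11; and the range over fits without 1 rat was Agtr1a -0.092 to 0.067, Ccr2 -0.040 to 0.16, Havcr1 -0.38 to 0.060, Ptch1 -0.067 to 0.019, Kcnma1 0.035 to 0.22. The causes were not tested. In the simulation, which kept the depth, gene spread and group sizes of these libraries but no shifts shared within a library, 59.7% of 1.5-fold and 82.1% of 2-fold changes were recovered.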
